A study of Mus musculus with 4 samples.

Results

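The ventral forebrain and interneuron regulators Dlx1, Dlx2, Dlx5, Dlx6, Dlx6os1, Gsx2, Nkx2-1, Lhx6 and Sp8 were examined in primary mouse neural stem/progenitor cells (NSCs) by RNA-seq. They were taken by gene name from 1 table of 18169 rows, in which 5 of the 9 names had a row: Dlx1, Dlx2, Gsx2, Nkx2-1 and Sp8. Dlx5, Dlx6, Dlx6os1 and Lhx6 were not matched to a row, under these names or under their RefSeq synonyms, and are not analysed here. The table held 0 rows at 0 in all 4 samples, and 31.3% of the protein-coding gene names of GENCODE M21 had no row, so a missing name gives no level.

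The samples were 2 +/+ and 2 Chd5-/- cultures on the C57BL/6 strain, the latter lacking the chromatin remodeler Chd5, and are called replicate 1 and replicate 2 of each genotype. Each culture came from the periventricular tissue of 1 newborn brain and was grown with epidermal growth factor and fibroblast growth factor 2, so that cells of several ventricular regions could have entered a culture. By the age entries of the labels the +/+ mice were 1 and 2 days old and the Chd5-/- mice 3 and 4 days old, whereas the growth protocol gives day 1 for all. By these entries age and genotype cannot be told apart. Values are TPM, a level scaled to transcript length that adds to about the same total in each sample, and the depth of the samples is unknown. Chd5 measured 0.39 and 0.37 TPM in the +/+ samples and 0.06 and 0.04 TPM in the Chd5-/- samples. All 8 neural stem cell markers listed had a row with a mean of at least 1 TPM, with summed levels of 7987 to 9660 TPM in +/+ and 3809 to 6520 TPM in Chd5-/- samples. These sums came mostly from Fabp7, Slc1a3 and Vim, which with Sox2 were lower in both Chd5-/- samples. Mean levels of Prom1, Hes5 and Msi1 were higher in Chd5-/- samples, with overlap. Prom1 was high only in Chd5-/- replicate 1, at 45.27 TPM, against 3.20 TPM in replicate 2. Hes5 was high only in Chd5-/- replicate 2, at 43.69 TPM, against 1.16 TPM in replicate 1. The mean of Nes was 78.97 TPM in +/+ and 77.77 TPM in Chd5-/- samples. Of the 8 markers, 0 passed the test described below.

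In the embryonic forebrain, the ganglionic eminences give rise to the GABAergic neurons of the striatum, the olfactory bulb and the cortex. Nkx2-1 specifies the medial eminence and, outside the telencephalon, the hypothalamus, and its target Lhx6 is retained by interneurons that leave the medial eminence. Gsx2 specifies the lateral eminence, upstream of the Dlx genes, and Sp8 marks cells of the dorsal lateral and caudal eminences that include olfactory bulb interneurons. The Dlx genes are arranged as convergently transcribed pairs with shared enhancers, Dlx1 with Dlx2 and Dlx5 with Dlx6, and Dlx6os1 is a noncoding RNA of the second pair. After birth, many of these regulators remain in use in the ventricular-subventricular zone, where different walls give rise to different olfactory bulb interneurons.

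On GRCm38 with the GENCODE M21 annotation, Dlx1 lies at chr2:71528113-71533981 on the plus strand, and Dlx2 at chr2:71543408-71546754 on the minus strand, with 9426 bases between them. Dlx6, at chr6:6863334-6868568 on the plus strand, and Dlx5, at chr6:6877805-6882085 on the minus strand, face each other across 9236 bases, and Dlx6 lies within the span of Dlx6os1, at chr6:6820189-6871592 on the minus strand. Gsx2 lies at chr5:75075601-75077893 and Sp8 at chr12:118846329-118852576, both on the plus strand. Nkx2-1 lies at chr12:56531958-56536908 and Lhx6 at chr2:36081953-36105408, both on the minus strand. Dlx1 overlaps the antisense gene Dlx1as, and Nkx2-1 overlaps the antisense gene Gm26973. The libraries were stranded, but whether the authors' quantification used the strand is not given in the sources used here, so reads of these overlapping genes may not have been told apart.

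Promoter sequences from RefSeq (GRCm38.p6) were matched for 7 of the 9 genes, in 12 windows of the 250 bases before a transcript start. Developmental regulators of this kind are known for promoters rich in CG dinucleotides. The windows of Dlx2 and Gsx2, chosen as examples from the 4 genes with a mean under 1 TPM, are shown beside that of Nkx2-1, the only gene measured above it. They lie at chr2:71546755-71547004 (minus strand), chr5:75075351-75075600 (plus strand) and chr12:56536909-56537158 (minus strand), are written 5′ to 3′, and have each CG in capitals.
Dlx2: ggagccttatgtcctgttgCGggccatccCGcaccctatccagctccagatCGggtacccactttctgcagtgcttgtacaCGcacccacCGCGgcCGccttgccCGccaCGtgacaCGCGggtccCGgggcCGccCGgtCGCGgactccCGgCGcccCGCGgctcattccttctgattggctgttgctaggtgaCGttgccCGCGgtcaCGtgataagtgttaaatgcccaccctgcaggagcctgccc
Gsx2: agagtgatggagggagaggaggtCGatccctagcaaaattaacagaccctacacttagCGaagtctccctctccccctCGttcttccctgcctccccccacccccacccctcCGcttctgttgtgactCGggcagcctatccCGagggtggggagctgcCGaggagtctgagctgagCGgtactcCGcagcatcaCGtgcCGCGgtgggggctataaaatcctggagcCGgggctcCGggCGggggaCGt
Nkx2-1: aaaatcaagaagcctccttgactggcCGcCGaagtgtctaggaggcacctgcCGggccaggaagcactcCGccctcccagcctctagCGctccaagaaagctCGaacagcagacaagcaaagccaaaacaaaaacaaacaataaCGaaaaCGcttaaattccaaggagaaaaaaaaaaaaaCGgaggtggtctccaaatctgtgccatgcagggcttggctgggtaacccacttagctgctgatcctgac
The Dlx2 window held 24 CG dinucleotides, a number reached by 12% of the 32841 RefSeq windows of the same length. The Gsx2 window held 16 (reached by 25.4%) and the Nkx2-1 window 9 (reached by 40.3%), against a median of 6 over all windows. The Dlx1 window held 22 CG dinucleotides, and the 3 windows of Sp8 held 1, 32 and 6. Those of Lhx6 held 7, 17 and 14, and those of Dlx6os1 3 and 5. Of the 12 windows, 8 were over the median. The homeodomain core TAATTA, searched on both strands, was in 3 of the 12 windows, both of Dlx6os1 and 1 of Sp8, and in 4.84% of all windows. The GC box GGGCGG, searched in the same way, was in 6 of the 12 windows, those of Dlx2, Gsx2, Nkx2-1, 1 of Sp8 and 2 of Lhx6, and in 32.7% of all windows. These are matches of letters only, and no binding or methylation was measured in these samples.

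Nkx2-1 was the only one of the 5 measured regulators with a mean of at least 1 TPM. Its level was 2.60 and 1.39 TPM in the +/+ samples and 5.56 and 1.32 TPM in the Chd5-/- samples. Replicate 1 of each genotype was the higher, and the genotypes overlapped, with the lowest and the highest value both in Chd5-/- samples. The mean over the 4 samples was 2.72 TPM, above that of 38.9% of all rows.

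Dlx1 was listed above 0 in all 4 samples, at 0.05 and 0.17 TPM in +/+ and 0.08 and 0.04 TPM in Chd5-/- samples. The +/+ samples held the highest value and the genotypes overlapped. The mean of Dlx1 was above that of 14% of all rows. Its neighbour Dlx2 was at 0.08 and 0.00 TPM in +/+ and 0.04 and 0.00 TPM in Chd5-/- samples. Dlx2 was thus listed at 0 in replicate 2 of both genotypes, and its mean was above that of 6.86% of rows. Dlx1 was the higher of the pair in 3 samples and Dlx2 in +/+ replicate 1.

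Gsx2 was at 0.05 TPM in +/+ replicate 1 and listed at 0 in the other 3 samples, and 2.27% of rows had a lower mean. Sp8 was at 0.02 TPM in +/+ replicate 1 and in both Chd5-/- samples and listed at 0 in +/+ replicate 2, and 3.09% of rows had a lower mean. At 2 decimals those of these values that are above 0 lie within a few steps of 0.01 TPM, the smallest value above 0 in the table. A low level in cultures of many cells may stem from few cells with the RNA or from little RNA per cell, which cannot be told apart in bulk samples.

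**Figure D1:**
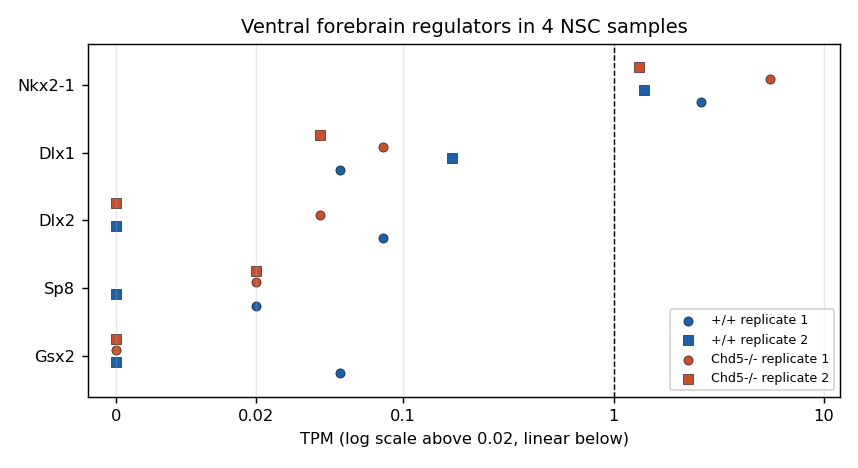
TPM (horizontal axis, logarithmic above 0.02 and linear below) of the 5 measured regulators in each sample, with +/+ in blue, Chd5-/- in orange, circles for replicate 1 and squares for replicate 2. The dashed line marks 1 TPM, which all 4 values of Nkx2-1 exceed, while no value of Dlx1, Dlx2, Sp8 or Gsx2 is above 0.17 TPM.

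By mean level the order was Nkx2-1, Dlx1, Dlx2, Sp8 and Gsx2. In every sample Nkx2-1 was above the other 4 genes, since its lowest value was 1.32 TPM and the highest value of the others 0.17 TPM. Below it neighbours overlapped, with Dlx1 at 0.04 to 0.17 TPM, Dlx2 at 0.00 to 0.08 TPM, Sp8 at 0.00 to 0.02 TPM and Gsx2 at 0.00 to 0.05 TPM. Summed over these 4 genes, the level was 0.20 and 0.17 TPM in the +/+ samples and 0.14 and 0.06 TPM in the Chd5-/- samples. Such levels were common in the table: 12.8% of all rows, and 41.5% of the 5593 rows with a mean under 1 TPM, had no value above 0.17 TPM in any sample.

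The question put to these genes was whether their level differed between +/+ and Chd5-/- NSCs. No difference beyond the spread between replicates was found for any of the 5. The genotypes overlapped in 5 of 5. Over all rows they did not overlap in 34.5% of those under 1 TPM and in 59.4% of those tested. Equal values counted as overlap, and at 2 decimals Dlx2, Gsx2 and Sp8 each had a value found in both genotypes. Only 41.5% of the rows under 1 TPM were as low throughout as Dlx1, Dlx2, Gsx2 and Sp8. For these 4 genes the overlap therefore does not show that the level was unchanged. With 2 samples against 2, an exact two-sided permutation test of a single gene cannot give a p below 0.333, so the comparison rests on limma fitted across all rows.

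For Nkx2-1, the mean was 2.00 ± 0.856 TPM in +/+ and 3.44 ± 3.00 TPM in Chd5-/- samples (SD, n = 2 each). The log2 fold change, which is the difference of mean log2(TPM + 1) and understates changes of low genes, was 0.41 with a standard error of 0.59 and a 95% interval of -1.08 to 1.91. The limma p-value was 0.515 and the adjusted p-value 0.69. Of the 12576 rows tested, 0.0557% had an adjusted p-value under 0.05, and 21.9% had an unadjusted p-value under 0.05 with the higher level in Chd5-/- and 2.27% with the lower level. Over all rows tested the log2 fold change had a median of 0.34, close to that of Nkx2-1.

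Replicates of 1 genotype differed in Nkx2-1 by more than the genotype means did. Replicate 1 exceeded replicate 2 by 0.59 in log2(TPM + 1) in +/+, a TPM ratio of 1.87, and by 1.50 in Chd5-/-, a TPM ratio of 4.21. Differences at least as large between the same samples were seen in 14.8% and 8.06% of the rows tested. In Chd5-/- replicate 1, which had the highest Nkx2-1, the summed level of 6 mesenchyme markers was 12.23 TPM, against 0.02 to 0.17 TPM in the other samples, and came mostly from the collagen gene Col3a1 (7.41 TPM) and the proteoglycan gene Dcn (4.17 TPM). The part of this in the Nkx2-1 value was not tested.

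The direction of the Nkx2-1 difference changed with 1 sample left out. Without Chd5-/- replicate 1 the log2 fold change was -0.34, and without Chd5-/- replicate 2 it was 1.16, with an unadjusted limma p-value of 0.0292 and an adjusted p-value of 0.121. It was 0.71 without +/+ replicate 1 and 0.12 without +/+ replicate 2. Over 15 alternatives, among them the fits with 1 sample left out, the log2 fold change was above 0 in 11 and below 0 in 4. These are not separate checks of the sign. The estimate cannot change with no minimum, the replicate block, eBayes without the trend or summed duplicate names, and stayed at 0.41. With all 4 samples, adjusted limma p-values of the alternatives were between 0.639 and 0.878.

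**Figure D2:**
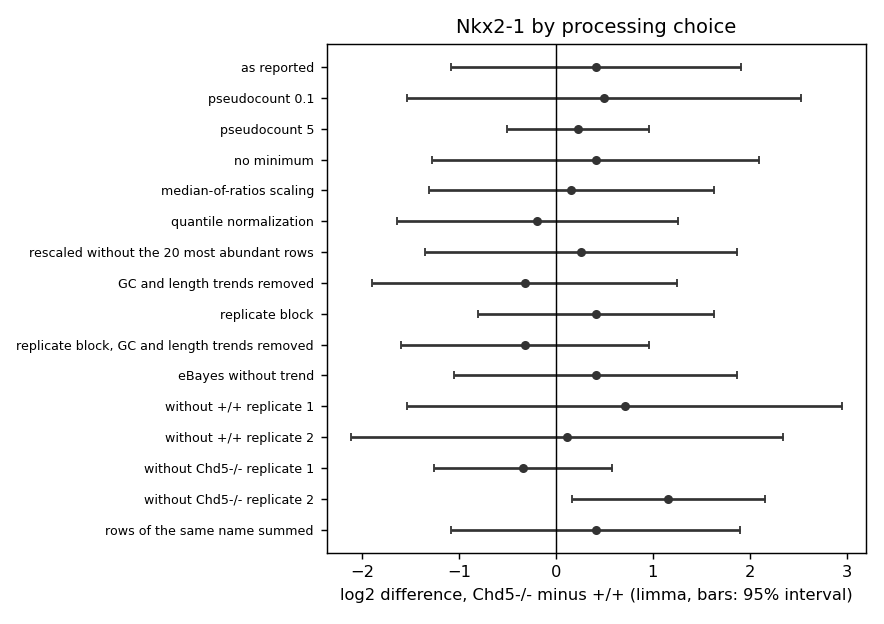
Log2 difference of Nkx2-1 between Chd5-/- and +/+ samples (points) with its 95% interval from limma (bars) as reported and under 15 alternatives. The interval includes 0 in all but the fit without Chd5-/- replicate 2, where it runs from 0.17 to 2.16, and the point is below 0 in 4 fits, among them -0.34 without Chd5-/- replicate 1.

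The 3 rows whose values over the 4 samples ran most like those of Nkx2-1, by Euclidean distance between centred log2(TPM + 1) values, were Gstm2, Adam12 and Peg10, at distances of 0.08, 0.11 and 0.12. Gstm2, a glutathione transferase, was at 1.44 and 0.70 TPM in +/+ and 3.37 and 0.55 TPM in Chd5-/- samples. Adam12, a membrane metalloprotease, was at 44.93 and 27.08 TPM in +/+ and 83.79 and 27.72 TPM in Chd5-/- samples. Peg10, an imprinted gene derived from a retrotransposon, was at 54.69 and 35.72 TPM in +/+ and 111.22 and 36.01 TPM in Chd5-/- samples. Each was highest in Chd5-/- replicate 1 and second highest in +/+ replicate 1, and with 4 samples this is a description only.

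The 4 genes under 1 TPM were fitted without a minimum level. The log2 difference was -0.06 for Dlx1, with a 95% interval of -0.29 to 0.16, and -0.03 for Dlx2, with an interval of -0.21 to 0.16. It was -0.04 for Gsx2, with an interval of -0.19 to 0.12, and 0.01 for Sp8, with an interval of -0.13 to 0.16. Adjusted limma p-values were 0.681 for Dlx1, 0.836 for Dlx2, 0.746 for Gsx2 and 0.889 for Sp8. The added 1 TPM narrows these intervals at so low a level, and with 0.1 TPM added instead that of Dlx1 ran from -1.56 to 0.88 and that of Dlx2 from -1.36 to 1.00. On the linear scale, Dlx1 was at 0.11 ± 0.085 TPM in +/+ and 0.06 ± 0.028 TPM in Chd5-/- samples, and Dlx2 at 0.04 ± 0.057 and 0.02 ± 0.028 TPM (SD, n = 2 each).

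Close relatives of these genes were of both kinds. The list of paralogues held 25 names, of DLX, NK and LIM homeobox genes, SP zinc finger genes, Gsx1 and the antisense gene Dlx1as. Of these names 13 had a row, in 14 rows, of which 8 had a mean under 1 TPM. Dlx3 and Dlx4, named here after their values were seen, were as low as Dlx1 and Dlx2, at 0.00 to 0.12 TPM over the samples. Sp9, which acts with Sp8 in olfactory bulb interneurons, and Gsx1, the paralogue of Gsx2, were also chosen after their values were seen. Sp9 was at 0.44 and 0.07 TPM in +/+ and 0.04 and 0.07 TPM in Chd5-/- samples, and Gsx1 at 0.52 and 0.06 TPM in +/+ samples and listed at 0 in both Chd5-/- samples. Both were highest in +/+ replicate 1, which was also the sample with the highest Dlx2 (0.08 TPM) and the only one with Gsx2 above 0 (0.05 TPM). Dlx1 and Sp8 did not follow this. Dlx1 was highest in +/+ replicate 2, at 0.17 TPM, and Sp8 was at 0.02 TPM in +/+ replicate 1 and in both Chd5-/- samples. Nkx2-2, the ventral spinal and oligodendrocyte lineage relative of Nkx2-1, also named after its values were seen, was at 4.88 and 20.41 TPM in +/+ and 17.18 and 9.07 TPM in Chd5-/- samples. Of the 6 paralogue rows tested, 0 had an adjusted p-value under 0.05 and 0 an unadjusted p-value under 0.05. The largest differences upward were those of the SP factors Sp2 (log2 fold change 0.68, adjusted p = 0.266, limma) and Sp4 (0.45, adjusted p = 0.372), and downward those of the LIM homeobox gene Lhx2 (-1.84, adjusted p = 0.305) and of Sp3 (-0.41, adjusted p = 0.316).

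Other regulators used in the subpallium ranged from levels like those of the Dlx genes to that of Olig1, the most abundant. Of 24 listed, 19 had a row, 13 of them with a mean of at least 1 TPM and 6 with a mean under it, among which Sp9 and Gsx1 were given above. The oligodendrocyte lineage factors Olig1 (300.77 to 664.38 TPM over the samples) and Olig2 (155.60 to 190.31 TPM), which the ganglionic eminences also use, were chosen after their values were seen. Otx2, a regulator of the anterior brain, was at 28.29 and 18.26 TPM in +/+ and 99.68 and 36.58 TPM in Chd5-/- samples (log2 fold change 1.37, adjusted p = 0.197, limma), and for Ebf1, a factor of striatal neurons, the log2 fold change was 0.84 (adjusted p = 0.304).

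Of these 13 rows, 1 passed the test, beside 0.0557% of all rows tested. The list was fixed with results of these data known, so this count is a description only. Six3, a rostral forebrain factor also used in striatal neurons, was at 38.13 and 37.64 TPM in +/+ and 0.54 and 0.70 TPM in Chd5-/- samples, a log2 fold change of -4.59 with a standard error of 0.27 and an adjusted limma p-value of 0.0267. Its adjusted p-value was 0.373 without +/+ replicate 1 and 0.725 without +/+ replicate 2, 0.194 with no minimum, 0.0859 with a minimum of 10 TPM, 0.12 with the replicate number as a block and 0.129 with GC and length trends removed as well, while the log2 fold change was between -5.73 and -2.93 over all alternatives. The median log2 fold change of the 13 rows was 0.16, against 0.34 over all rows tested.

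**Figure D3:**
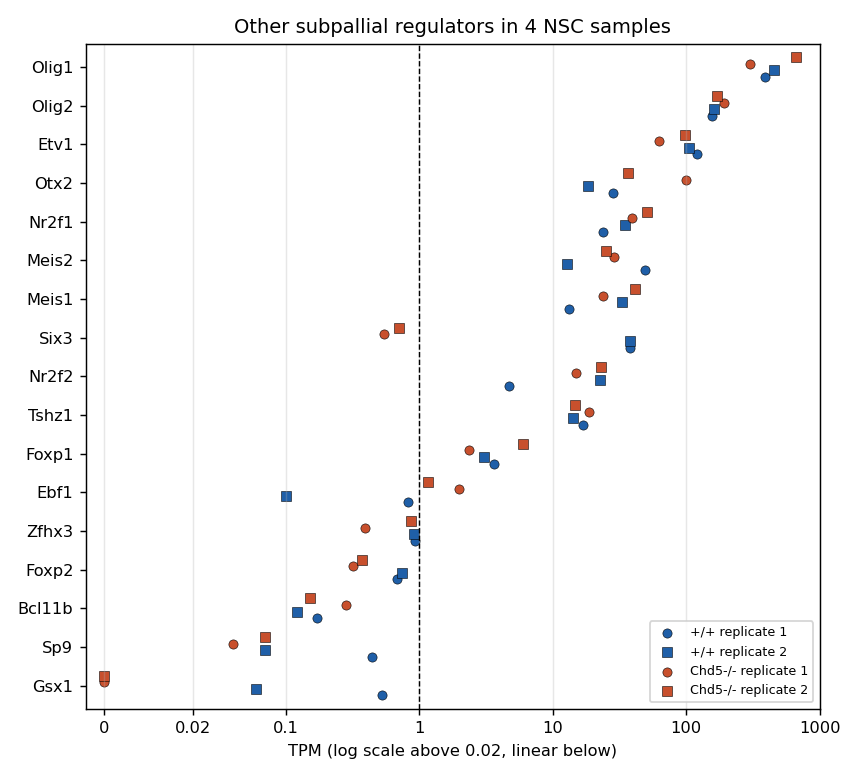
TPM (horizontal axis, logarithmic above 0.02 and linear below) of 17 other regulators used in the subpallium, by sample, with colours and symbols by genotype and replicate as in the key and a dashed line at 1 TPM. Olig1 and Olig2 stand above 100 TPM in every sample, and Six3 is near 38 TPM in both +/+ samples and under 1 TPM in both Chd5-/- samples.

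Shh, the secreted signal that induces Nkx2-1, was at no more than 0.05 TPM in any sample, and is named after its values were seen. Of 12 patterning genes listed, 11 had a row, 7 were tested, and 0 passed at an adjusted or unadjusted limma p-value of 0.05. Log2 fold changes were 0.56 for the hedgehog receptor Ptch1 (adjusted p = 0.416), 0.37 for the signal transducer Smo (adjusted p = 0.43) and -1.33 for the zinc finger gene Zic1 (adjusted p = 0.316).

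Of 16 regulators of the dorsal forebrain, the counterpart of the ventral program, 10 had a row, 3 were tested, and 0 passed the adjusted threshold. The median of the 3, -1.84, is the value of Lhx2, which is also in the list of paralogues. Lhx2 overlapped between genotypes, at 37.37 and 5.60 TPM in +/+ and 1.55 and 6.73 TPM in Chd5-/- samples. Emx2, which patterns the dorsal telencephalon, was at 29.59 and 12.11 TPM in +/+ and 2.30 and 0.20 TPM in Chd5-/- samples, a log2 fold change of -3.33 with a 95% interval of -4.99 to -1.67 (unadjusted p = 0.00332, adjusted p = 0.12, limma). Its adjusted p-value was 0.373 without +/+ replicate 1 and 0.759 without +/+ replicate 2, and 0.0284 and 0.0482 without Chd5-/- replicates 1 and 2, fits in which limma called 1247 and 1086 of all rows.

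Downstream genes of the interneuron program were unevenly represented. Gad1, which makes GABA, was at 27.85 and 4.34 TPM in +/+ and 57.17 and 5.38 TPM in Chd5-/- samples, so that, as for Nkx2-1, replicate 1 was the higher in both genotypes and the genotypes overlapped (log2 fold change 0.63, adjusted p = 0.778, limma). Its paralogue Gad2, chosen after its values were seen, was at 0.37 and 1.45 TPM in +/+ and 0.13 and 0.29 TPM in Chd5-/- samples. For Abat, which breaks GABA down, the log2 fold change was 0.55 (adjusted p = 0.602). Of 7 genes of GABA synthesis and transport, 5 had a row, 4 were tested and 0 passed at an adjusted or unadjusted limma p-value of 0.05.

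Genes of interneuron migration and maturation were measured, with 20 of 21 names found. The other name, Cxcr7, is an older name of Ackr3, which had a row. Of the 21 rows, 19 were tested, and 0 passed the adjusted threshold. Cxcr4, the chemokine receptor of migrating interneurons, was at 5.83 and 8.56 TPM in +/+ and 38.83 and 28.02 TPM in Chd5-/- samples, a log2 fold change of 2.07 with a 95% interval of 1.27 to 2.87 (unadjusted p = 0.00103, adjusted p = 0.12, limma). Nxph1, a ligand of neurexins, was at 65.69 and 60.13 TPM in +/+ and 16.20 and 31.57 TPM in Chd5-/- samples (log2 fold change -1.43, unadjusted p = 0.00946, adjusted p = 0.128). Without +/+ replicates 1 and 2, adjusted p-values were 0.373 and 0.759 for Cxcr4 and 0.406 and 0.759 for Nxph1. Without Chd5-/- replicates 1 and 2, the fits with 1247 and 1086 calls over all rows, they were 0.0452 and 0.0252 for Cxcr4 and 0.049 and 0.0133 for Nxph1. The semaphorin receptor Nrp2 was at 2.97 and 8.57 TPM in +/+ and 16.84 and 8.79 TPM in Chd5-/- samples (log2 fold change 1.10, adjusted p = 0.281, limma). The guidance receptor Robo1 was at 40.40 and 43.68 TPM in +/+ and 14.80 and 40.29 TPM in Chd5-/- samples (-0.75, adjusted p = 0.383). Both were without overlap between genotypes only by a narrow margin, as 59.4% of all rows tested were without overlap. Neither passed the test.

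Of 14 markers of interneuron subtypes, 9 had a row, 6 of them with a mean under 1 TPM, 3 were tested and 0 passed the adjusted threshold. Reln, a secreted protein of some interneurons, was at 2.24 and 11.26 TPM in +/+ and 0.43 and 0.78 TPM in Chd5-/- samples (log2 fold change -1.98, unadjusted p = 0.0317, adjusted p = 0.175, limma). The potassium channel gene Kcnc1 was at 74.01 and 37.82 TPM in +/+ and 65.68 and 40.29 TPM in Chd5-/- samples, the highest levels of the list (log2 fold change -0.04, adjusted p = 0.962). The calcium-binding protein gene Pvalb was at 0.84 to 4.14 TPM over the samples (log2 fold change 0.13, adjusted p = 0.909), and both genes overlapped between genotypes. Medians of the tested rows were 0.04 for the paralogues, -0.25 for the patterning genes, -1.84 for the dorsal regulators, 0.53 for the GABA genes, 0.36 for the lineage genes and -0.04 for the subtype markers, beside 0.34 for all rows tested, and several of these change sign with the scaling or with 1 sample left out. Of the other genes named from these lists, several passed only in a fit that left 1 Chd5-/- sample on its own, as given above for Emx2. Without replicate 2 these were Otx2 (adjusted p = 0.0225), Zic1 (0.0124) and Robo1 (0.0296), and without replicate 1 Ptch1 (0.0372) and Abat (0.0316).

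**Figure D4:**
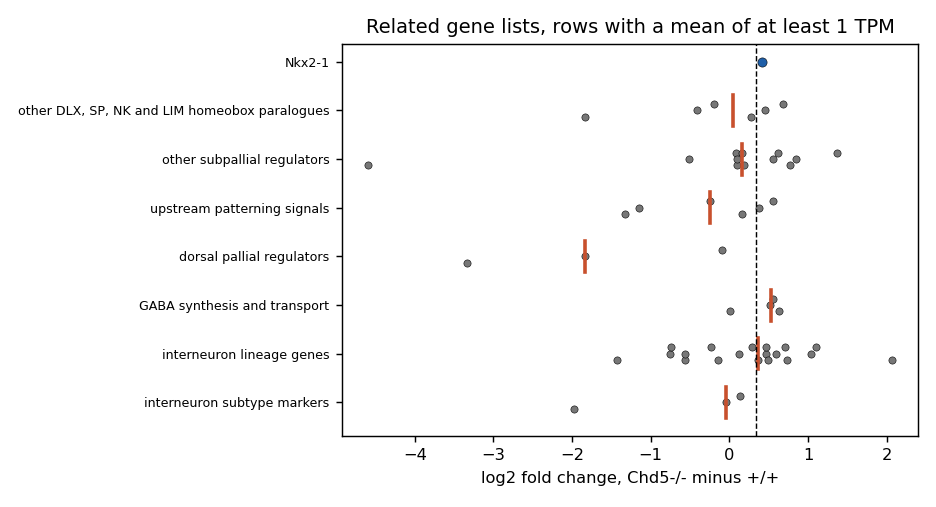
Log2 fold change between Chd5-/- and +/+ samples (horizontal axis) of tested rows (grey points) in 7 lists of related genes, with the median of each full list (orange bar), Nkx2-1 (blue) and the median of all rows tested, 0.34 (dashed line). Nkx2-1, at 0.41, lies close to the dashed line, and Six3 lies farthest to the left at -4.59. The 3 dorsal regulators have a median of -1.84, which is the value of Lhx2, a gene that overlapped between genotypes.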

How the data were processed

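RNA was sequenced from 4 primary NSC cultures, 2 per genotype, from stranded libraries of polyadenylated RNA. The authors deposited TPM values in 1 table with 2 decimals. The submitters' processing notes name mm10, Bowtie2 2.2.3 and RSEM 1.2.20, with no order or parameters. Columns were assigned by name and sum to between 1000015 and 1000031 TPM, so each level depends on those of the abundant rows, and depth cannot be read.

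Levels were tested as log2(TPM + 1), in rows whose mean was 1 TPM or more, with limma 3.58.1 in R 4.3.3 (lmFit, eBayes with a trend, two-sided), with Benjamini-Hochberg adjustment over all 12576 rows tested. The code was tested on simulated data. No count model was used, since TPM are not counts. The fit without a minimum of the 4 genes under 1 TPM was added after their levels were seen. The members and the gene lists were chosen with earlier results of these data known. Named besides the members were Chd5, the 2 largest rises and the 2 largest falls of each list among rows tested, and the 3 rows most like Nkx2-1, and other names are stated as chosen after their values were seen. Some genes under this rule are not reported here, though counts and medians of the lists include them. Positions are from GENCODE M21 and promoters from RefSeq, and the annotation behind the TPM values is not given in the sources used here. Alternatives were other pseudocounts (0.1 and 5), minimums (none and 10 TPM), scalings (median of ratios, quantiles, without the 20 most abundant rows), removal of GC and length trends by loess (span 0.5), summed duplicate names, a replicate block, eBayes without the trend, and leaving out each sample. Tables used Python 3.11.15, pandas 2.3.3 and numpy 2.4.6, and figures matplotlib 3.10.9.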

Additional observations from a re-analysis of the deposited data

How the results depend on the processing

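For Nkx2-1, whose log2 fold change was 0.41, the sign was the opposite after quantile normalization (-0.19), after removal of GC and length trends with or without the replicate block (-0.32 in both), and without Chd5-/- replicate 1, and values with 1 sample left out were -0.34 to 1.16. The number of the 5 genes with an unadjusted p-value under 0.05 was 0, and 0 to 1 with 1 sample left out. A minimum of 10 TPM left none of them to test. With 0.1 TPM added, the log2 differences of the 4 lower genes were -0.34 for Dlx1, -0.18 for Dlx2, -0.29 for Gsx2 and 0.13 for Sp8. In each of these genes the ranked values of 1 genotype were nowhere below those of the other. No added value could therefore change their signs, and the unchanged signs are no check. The log2 difference of Nkx2-1 kept its sign without an added value.

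Over all rows, limma gave 7 adjusted calls, 4 with 0.1 TPM added, 3 after quantile normalization, 4 after removal of GC and length trends, and 0 to 1247 with 1 sample left out, where the lone sample is assumed to vary like the others. Calls numbered 0 with no minimum (3473 rows at an unadjusted p under 0.05), with the replicate block (2289), with the block and GC and length trends removed (873), and without +/+ replicate 1 (1600) or replicate 2 (804), and 1247 and 1086 without Chd5-/- replicates 1 and 2. The replicate numbers are only shared, and the deviations of same-numbered samples correlated at -0.15 across rows. Rows at an unadjusted p under 0.05 were 2748 higher and 285 lower in Chd5-/- samples, but 1508 and 1311 with median-of-ratios scaling, 1103 and 1021 after quantile normalization, 1871 and 819 with the 20 most abundant rows left out of the scaling, and 581 and 732 after GC and length removal. Over all rows the log2 fold change had a median of 0.34 as deposited, and in the same order 0.01, -0.05, 0.13 and -0.02.

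List medians moved as well. The paralogues, at 0.04, were at -0.30 with a minimum of 10 TPM, -0.27 after quantile normalization, -0.32 with median-of-ratios scaling, -0.18 with the 20 most abundant rows left out of the scaling and -0.35 after GC and length removal, with or without the block, and at -0.34 to 0.11 with 1 sample left out. The subpallial regulators, at 0.16, were at 0.11 with 5 TPM added, 0.08 with no minimum, 0.10 with a minimum of 10 TPM, -0.19, -0.14 and -0.06 with median-of-ratios scaling, with quantile normalization and with the 20 most abundant rows left out, -0.47 after GC and length removal, with or without the block, and 0.15 to 0.60 with 1 sample left out. The patterning genes, at -0.25, were at -1.15 with a minimum of 10 TPM, -0.89 after quantile normalization and -0.86 after GC and length removal, with or without the block. The dorsal regulators, at -1.84, were at -0.06 with no minimum and -3.11 to -0.57 with 1 sample left out. The subtype markers, at -0.04, were at -0.79 after GC and length removal, with or without the block. With 1 sample left out they were at -0.62 to 0.31, the GABA genes at -0.46 to 1.01 and the lineage genes at -0.14 to 0.78. The cause of these shifts was not tested. Depth is unknown, so values of a few hundredths of a TPM have no counting error attached.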

Other observations

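Since Nkx2-1 is also a hypothalamic regulator, 12 regulators of the hypothalamus were looked up after the values of Nkx2-1 were seen, and 3 had a row. Foxb1, a forkhead gene of the mammillary region, was at 0.09 and 1.69 TPM in +/+ and 1.95 and 5.98 TPM in Chd5-/- samples, and was thus lowest in +/+ replicate 1, where Nkx2-1 was second highest (log2 fold change 1.41, adjusted p = 0.254, limma). Fezf1, a zinc finger gene of the forebrain and the ventromedial hypothalamus, was at 0.93 and 3.01 TPM in +/+ and listed at 0 in both Chd5-/- samples. Tbx3, a T-box gene of the tuberal hypothalamus, was at no more than 0.03 TPM in any sample.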
